A study of Mus musculus with 14 samples.

Results

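The comparison described here is the effect of the drug TAK-418 on gene expression in the hippocampus of wild-type mice. It rests on 8 of the 14 RNA-seq libraries of the series, chosen by their labels: 5 libraries from KMT2D+/+ mice given TAK-418 and 3 from KMT2D+/+ mice given vehicle. All mice were C57BL6, dosed once daily by gavage from 2 weeks of age for 2 weeks, with TAK-418 at 1 mg/kg/day in methylcellulose or with methylcellulose alone, and the hippocampus was taken at 30 days. The other 6 libraries come from KMT2D+/bGeo mice, which carry 1 trapped copy of Kmt2d, 3 on TAK-418 and 3 on vehicle, and they entered the same filter, scaling and limma model, which estimates the spread from all 14 libraries. The series' design text gives 3 to 4 mice per group, while 5 libraries carry the wild-type TAK-418 label, and nothing says whether libraries of 1 group come from separate animals or litters, so p-values measure the spread between libraries, and none of the deposited comparison tables sets these 2 wild-type groups against each other.

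TAK-418 is an inhibitor of LSD1, the histone demethylase encoded by Kdm1a. LSD1 removes methyl groups from lysine 4 of histone H3, mostly within the CoREST complex, which REST and related factors bring to neuronal genes. KMT2D works the other way, as a methyltransferase for the same lysine at enhancers, and its loss causes Kabuki syndrome. In the hippocampus the dentate gyrus goes on making granule neurons after birth, and a defect of that process is a known feature of the Kmt2d mouse model. The wild-type pair shows what the drug does where KMT2D is intact.

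Each library had been assembled into transcripts, each with an abundance per unit length, and a gene's value here is the sum over its transcripts, scaled between libraries (scaled abundance). The smallest abundances rose in even steps, which would be the value of 1 read if abundances were FPKM, a unit that is not stated. On that reading, 7 of the 8 wild-type libraries were at 35.1 to 56.1 M reads and TAK-418 replicate 1 at 168 M. That library carried 48428 assembled transcripts against 33819 to 39083 in the other 7. The share of transcripts made of a single exon was 12.4%, 6.54%, 15.6%, 10.4% and 6.72% in TAK-418 replicates 1 to 5 and 18.6%, 18.3% and 11.4% in vehicle replicates 1 to 3, so it was lower in most of the wild-type drug libraries. In the mutant libraries it was 18.4%, 16.1% and 17.8% under TAK-418 and 16.8%, 17.9% and 19.6% under vehicle. What set the wild-type libraries with low shares apart was not tested. Xist was listed in TAK-418 replicates 2 and 5 and vehicle replicates 1 and 3, and Y-linked genes in the other 4 libraries. Choroid plexus genes stood out in vehicle replicate 3, where Ttr was 6369 against 6.48 to 35.4 in the other 7 libraries. The hippocampal markers Wfs1 and Fibcd1 (CA1 pyramidal cells) and C1ql2 and Prox1 (dentate granule cells) were listed in all 8 libraries.

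The messenger RNA of the drug's target overlapped between the groups. Kdm1a (chr4:136550540-136602723, minus strand, GRCm38) was at 35, 35.1, 35.8, 33.9 and 33.2 under TAK-418 and at 33.7, 34.4 and 32.2 under vehicle. The drug values ran slightly above the vehicle values at both ends, and the log2 difference was 0.05 (SE 0.05, limma, adjusted p = 0.786). Kmt2d (chr15:98831669-98871204, minus strand) was at 13.8, 18, 12.5, 14.4 and 17.4 under TAK-418 and at 14, 14.2 and 13.8 under vehicle. Its drug values lay on both sides of the vehicle values, with a log2 difference of 0.10 (SE 0.15, adjusted p = 0.858).

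Neurons make a form of LSD1 that contains a microexon, and it is shown because the drug acts on this protein in neurons. The annotation places it at chr4:136563438-136563449 as exon 7 of 11 in 1 Kdm1a transcript, and the letters below are read 5′ to 3′ from that GENCODE transcript, with 24 bases of the neighbouring exons on each side and the 12-base microexon in capitals.
Kdm1a microexon: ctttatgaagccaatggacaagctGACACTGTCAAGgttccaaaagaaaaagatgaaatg
None of the 21 Kdm1a transcripts assembled in the 8 wild-type libraries held it. Of these, 17 had an intron that ran across the position of the microexon, and they made up 95.3% to 100% of the Kdm1a abundance of each wild-type library. No share of the neuronal form can therefore be given from these assemblies.

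One gene of 16589 tested passed an adjusted p of 0.05, which is 0.00603%. It was Tlnrd1 (chr7:83879873-83884305, minus strand), which encodes a talin rod domain protein that bundles actin. It was listed at 0 in all 5 TAK-418 libraries and at 0.436, 0.495 and 0.548 in the 3 vehicle libraries, with a limma adjusted p of 0.049. The values are close to the lowest an assembly reports, and Tlnrd1 was listed at 0 in all 6 mutant libraries as well. It met the filter of at least 3 libraries only through the 3 vehicle libraries. With any 1 of the 14 libraries left out the call was absent. Without a wild-type vehicle library that outcome was fixed, since the gene then fell below the filter. In what follows, higher and lower describe the values of the libraries, and none of the differences passed the adjusted threshold unless that is said.

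At an unadjusted p under 0.05, 853 genes were higher under TAK-418 (5.14% of those tested) and 539 were lower (3.25%). All 5 TAK-418 values lay above all 3 vehicle values for 651 genes (3.92%) and below them for 396 (2.39%). Higher genes thus made up 61.3% of those at p under 0.05. That split moved with the scaling: it was 81.7% after upper quartile scaling, which shifted the median log2 difference of all genes to 0.05, and 75.2% after quantile normalization. The genes that were higher were richer in G and C, with a median transcript GC content of 53.8% against 48.7% in the lower genes and 49.6% in all genes tested. The corresponding medians for mutants were 50.7% and 49.7%. After a correction for GC content in each library, higher genes made up 56.8%, and with the share of single-exon transcripts as a term 54.7%, both added after seeing the data.

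Among genes present in all 8 libraries, the 12 with the smallest p in the upward direction had a median log2 difference of 0.28 and adjusted p from 0.0832 to 0.195. Prdm8 (chr5:98167198-98188991), a PR-domain regulator of neuronal differentiation, was at 53.0, 47.7, 55.0, 53.6 and 48.5 under TAK-418 and at 42.8, 38.4 and 41.4 under vehicle. The lowest drug library was above the highest vehicle library, and the log2 difference was 0.33 (SE 0.05, adjusted p = 0.148). Pnck (chrX:73655994-73660117), a calcium and calmodulin dependent kinase of brain, was at 65.6, 58.7, 66.5, 57.0 and 64.6 against 52.4, 47.8 and 49.0, again with no overlap (log2 0.32, SE 0.06, adjusted p = 0.194). Pgbd5 (chr8:124369049-124439658), a gene derived from a piggyBac transposase, was at 101, 106, 105, 103 and 99.4 against 90.5, 88.0 and 88.4 (log2 0.21, SE 0.04, adjusted p = 0.188). These 3 genes kept their log2 difference within 1.5 times of the value given here under each of the 33 alternatives tried.

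The tyrosine kinase gene Src (chr2:157418444-157471862) was at 47.7, 49.4, 46.9, 46.4 and 45.7 under TAK-418 and at 40.6, 41.0 and 41.0 under vehicle. The vehicle libraries were almost equal and all 5 drug libraries were above them, giving a log2 difference of 0.20 (SE 0.04, adjusted p = 0.188). Orai2, a subunit of store-operated calcium channels, was at 81.9 to 92.2 against 74.7 to 77.7, and Plch2, a phospholipase C, at 43.8 to 48.2 against 32.1 to 38.7. The adhesion receptor gene Adgrg1 (GPR56) was at 32.3 to 34.2 against 28.2 to 30.2, the actin-binding gene Ablim3 at 15.9 to 16.9 against 13.0 to 14, and the membrane metalloproteinase gene Mmp17 at 87.3 to 103 against 74.7 to 81.8. For Src, Adgrg1 and Orai2 the difference lay in the sum over transcripts: with the highest transcript of the gene alone the log2 differences were 0.01, 0.02 and 0.10.

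The largest difference of the 12 was that of Aptx (chr4:40682382-40703194), which encodes aprataxin, a DNA strand-break repair enzyme. It was at 13.1, 12.9, 15.2, 13.4 and 13.8 under TAK-418 and at 8.81, 6.73 and 9.39 under vehicle (log2 0.67, SE 0.09, adjusted p = 0.0832). This direction depends on how assembled transcripts are added up: with each abundance multiplied by transcript length, which is closer to a count of reads, the log2 difference of Aptx was -0.67, an adjusted call in the opposite direction. In the authors' deposited tables, whose pooled wild-type values were normalized separately in each table, Aptx had 11.7 and 11.6 FPKM under TAK-418 and 12 and 11.9 under vehicle. Tnrc18, at 18.1 to 20.3 against 13.5 to 16.0, and the neuronal membrane gene Sez6l, at 78.4 to 87.6 against 65.9 to 72.1, had log2 differences of 0.41 and 0.27, and with the highest transcript alone these were -0.24 and 0.06. Of the 12 genes, 10 had a row of their own in the authors' deposited tables, and 9 of those were higher under TAK-418 there too, with Aptx the exception. Those pooled values carry no replicate spread and are not independent of the libraries.

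**Figure D1:**
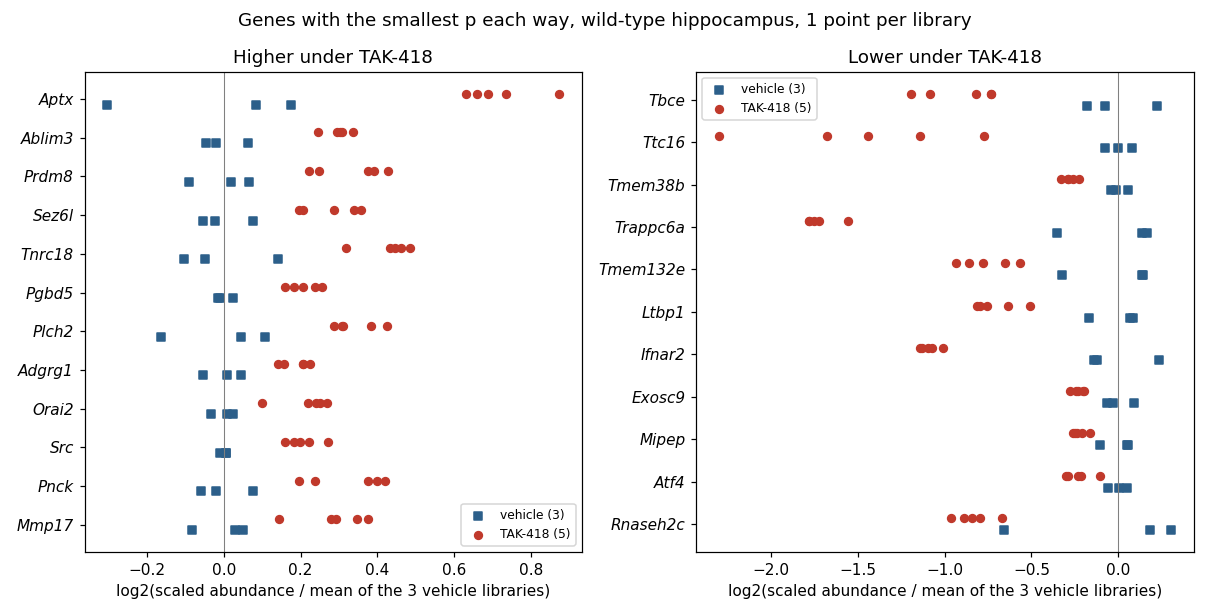
Scaled abundance in each wild-type library as log2 of its ratio to the mean of the 3 vehicle libraries (x axis) for the 12 higher and 11 of the 12 lower top genes by p (y axis), circles for TAK-418 and squares for vehicle. The 5 circles and the 3 squares of a gene do not overlap because genes were chosen on that; the higher genes differ by less (median log2 difference 0.28) than the lower ones (-0.56).

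The 12 genes on the lower side had larger differences, a median log2 of -0.56, and adjusted p from 0.165 to 0.216, but 5 of them changed sign when abundance was multiplied by transcript length. Atf4 (chr15:80255184-80257541), the transcription factor of the integrated stress response, was the most abundant. It was at 85.4, 74.7, 78.5, 75.3 and 79.2 under TAK-418 and at 92.4, 95.3 and 88.5 under vehicle (log2 -0.23, SE 0.05, adjusted p = 0.21). Every drug library was below every vehicle library, and the log2 difference of Atf4 was between -0.26 and -0.16 under all 33 alternatives. Tmem38b, a cation channel of the endoplasmic reticulum, was at 7.54 to 8.11 against 9.19 to 9.82 (log2 -0.25, SE 0.05, adjusted p = 0.195). Exosc9, a subunit of the RNA exosome, was at 18.5 to 19.6 against 21.5 to 23.9 (log2 -0.22).

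The tubulin folding cofactor gene Tbce (chr13:13997949-14039638) was at 22.6, 17.7, 21.3, 22.6 and 16.4 under TAK-418 and at 35.6, 43.9 and 33.2 under vehicle, a log2 difference of -0.87 (SE 0.15, adjusted p = 0.165). With abundance multiplied by transcript length it was 0.06. The same change of measure turned Tmem132e from -0.57 to 0.12, the TGF-beta binding protein gene Ltbp1 from -0.52 to 0.17, and the mitochondrial peptidase gene Mipep from -0.21 to 0.01. It brought the RNase H2 subunit gene Rnaseh2c from -0.72 to -0.10, the vesicle tethering gene Trappc6a from -1.30 to -0.09, and Ttc16 from -0.88 to -0.16. Of the 12, 8 had a row of their own in the authors' deposited tables, of which 5 were lower under TAK-418 there, with a median log2 ratio of -0.02.

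When limma was run without the mutants, 7 genes passed an adjusted p of 0.05, and 3 of them are 1 locus. Nme1 and Nme2, neighbouring genes for nucleoside diphosphate kinases, and Gm20390, the annotated transcript that reads through both, lie at chr11:93949814-93968521 on the minus strand. In the 5 TAK-418 libraries Nme1 and Nme2 were listed at 0 and the joined transcript at 39.1, 37.1, 40.9, 37.3 and 38.0. In the 3 vehicle libraries the joined transcript was listed at 0, with Nme1 at 132, 135 and 112 and Nme2 at 121, 121 and 119. The joined form was also assembled, with Nme1 at 0, in 1 mutant library on TAK-418 and 1 on vehicle, while the other 4 mutant libraries had the separate forms. No library listed both the joined transcript and Nme1, and how the assembler divided the reads of this locus was not tested, so no level of either gene is compared across the groups here.

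Of the other 4 genes of that fit, Ifnar2, a subunit of the type I interferon receptor, was at 6.89, 7.31, 6.72, 6.66 and 6.98 under TAK-418 and at 13.3, 13.5 and 17.2 under vehicle. The drug libraries were all lower and close together (log2 -0.99, SE 0.21, adjusted p over all 14 libraries = 0.195). With abundance multiplied by length the log2 difference of Ifnar2 was -0.24. Trappc6a was at 1.57 to 1.84 against 4.22 to 6.04. Prox1os, a noncoding transcript on the strand opposite Prox1, was at 5.41, 4.11, 5.39, 7.18 and 5.54 against 0.749, 0 and 0, but its row in the authors' deposited tables had 7.28 and 7.22 FPKM under TAK-418 and 7.08 and 7.03 under vehicle. Gm8108 was at 2.03 to 3.05 in the drug libraries and listed at 0 in the 3 vehicle libraries. In mutants it was listed in 3 drug libraries and in 1 vehicle library, there at 2.58. Like Nme1, Nme2 and Gm20390, it passed the filter of that fit through only the drug or only the vehicle libraries. The group at 0 had no spread, so the small p of these genes cannot be read as a measured difference.

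Genes of dentate granule neurons were higher under TAK-418 more often than lower. Of 15 markers of mature granule cells, 13 were higher and 2 lower, and 6 were higher at p under 0.05 (against 5.14% of all genes tested). For 4 the groups did not overlap, all higher (against 3.92%), and the median log2 difference was 0.15, against -0.003 over all genes. C1ql2, a synaptic organizer of mossy fibres, was at 61.2, 62.0, 69.9, 60.8 and 61.1 under TAK-418 and at 52.2, 49.5 and 54.5 under vehicle (log2 0.27, SE 0.06, adjusted p = 0.195). Dsp, the desmosomal protein desmoplakin, was at 14.9, 17.1, 15.5, 16.9 and 14.5 against 13.3, 10.2 and 10.1 (log2 0.47, SE 0.10, adjusted p = 0.195). Prox1, the transcription factor that specifies granule cells, was at 35.2, 43.3, 33.7, 38.7 and 33.5 against 30.2, 30.6 and 30.1 (log2 0.27, SE 0.08, adjusted p = 0.415). In all 3 genes each drug library was above each vehicle library. Lct, at 16.5 to 19.3 against 13.2 to 16.9, Plekha2, at 12.7 to 21.4 against 11.3 to 12.6, and Tdo2, at 8.44 to 9.66 against 6.87 to 8.54, were the other members at p under 0.05. The calcium-binding protein gene Calb1, the most abundant of the list, was at 87.6 to 98.6 against 86.8 to 118 and overlapped between the groups (log2 -0.05, SE 0.10).

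Of 16 genes of newborn granule neurons, 11 were higher and 5 lower, 6 were higher at p under 0.05 (against 5.14% of all genes tested), and the median log2 difference was 0.16. Averaged over the list, the log2 deviation from the mean of the 8 wild-type libraries overlapped between the groups. It was -0.17, 0.05, -0.31, 0.04 and 0.26 under TAK-418 and 0.18, 0.27 and -0.32 under vehicle. The lowest member had a log2 difference of -2.065. Prox1 belongs to both granule lists and is counted in each. Dpysl3, a protein of growing axons, was at 26.9, 26, 20.5, 25 and 25.8 under TAK-418 and at 16.6, 18.7 and 18.9 under vehicle (log2 0.44, SE 0.09, adjusted p = 0.195). Igfbpl1 was at 13.5, 10.6, 12.6, 12.4 and 10.3 against 7.33, 5.87 and 10.3 (log2 0.57, SE 0.14, adjusted p = 0.287), and Dcx, the microtubule protein doublecortin, at 7.41, 7.10, 5.77, 6.47 and 6.99 against 4.82, 4.88 and 6.38 (log2 0.30, SE 0.10, adjusted p = 0.436). For Igfbpl1 and Dcx, vehicle replicate 3 reached the range of the drug libraries. Calb2, also a marker of interneurons, was at 37.7 to 47.7 against 28.1 to 37.5, and Neurod1 at 22.4 to 26.6 against 20.5 to 22.5. The abundant members Stmn1, at 196 to 263 against 239 to 281, and Tubb3, at 164 to 179 against 158 to 175, overlapped between the groups. Of 21 dividing and stem cell genes, 10 were higher and 11 lower, with a median log2 difference of -0.01 that was 0.10 without TAK-418 replicate 1 and 0.06 without vehicle replicate 3. Because this is bulk tissue, more cells of a type and more RNA per cell cannot be told apart.

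With 1 wild-type library left out at a time, the median of the mature list was between 0.12 and 0.22 with 12 or 13 of 15 higher, and that of the newborn list between 0.11 and 0.20 with 10 or 11 of 16 higher. With the share of single-exon transcripts as a term, 4 mature and 3 newborn members were higher at p under 0.05. In the authors' deposited tables, all 4 mature and all 4 newborn members with p under 0.05 that had a row of their own, 7 genes in all since Prox1 is in both lists, were higher under TAK-418 as well. These members were chosen by p in the same libraries, so this is not independent support. Matched members at p under 0.05 kept their direction there in the other lists too, but not always their size. The log2 ratio there was 0.04 for Tdo2, -0.05 for Erbb4 and -0.01 for Irf7. In the libraries these genes had log2 differences of 0.22, -0.48 and -0.38. Others were close, such as Dsp at 0.52 against 0.47 and Nr4a1 at -0.47 against -0.44.

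CA1 pyramidal genes lay mostly on the other side. Of 12 measured, 9 were lower and 3 higher, 4 were lower at p under 0.05 and 1 higher (against 3.25% and 5.14% of all genes tested), and the median log2 difference was -0.19. Wfs1, a protein of the endoplasmic reticulum, was at 47.2, 46.6, 49.5, 40.5 and 50.3 under TAK-418 and at 50.9, 52.0 and 61.1 under vehicle (log2 -0.22, SE 0.08, adjusted p = 0.483). It was lower in every drug library than in any vehicle library, whereas Fibcd1 was at 54.0 to 60.4 against 46.3 to 53.6 and so higher in all 5. Etv1 and Man1a overlapped between the groups, with log2 differences of -0.20 and -0.18, and Etv1 was at 0.13 with abundance multiplied by length. Without vehicle replicate 3, 2 CA1 genes were lower at p under 0.05, and after upper quartile scaling 1. The CA1 median was -0.05 with the share of single-exon transcripts as a term, and CA1 markers were lowest in TAK-418 replicate 1, at -0.38 from the mean of the 8 libraries on the log2 scale; without that library 10 of 12 were lower, with a median of -0.17. Of 17 CA2 and CA3 genes, 12 were higher, with a median of 0.03. At p under 0.05, 3 of them were higher, against 5.14% of all genes tested (Spock1, Bok and St18, log2 0.16 to 0.22). Of 26 interneuron genes, 11 were higher and 15 lower, and Erbb4, a neuregulin receptor, was at 7.61 to 10.7 against 11.4 to 14.2 (log2 -0.48, SE 0.13, adjusted p = 0.347).

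**Figure D2:**
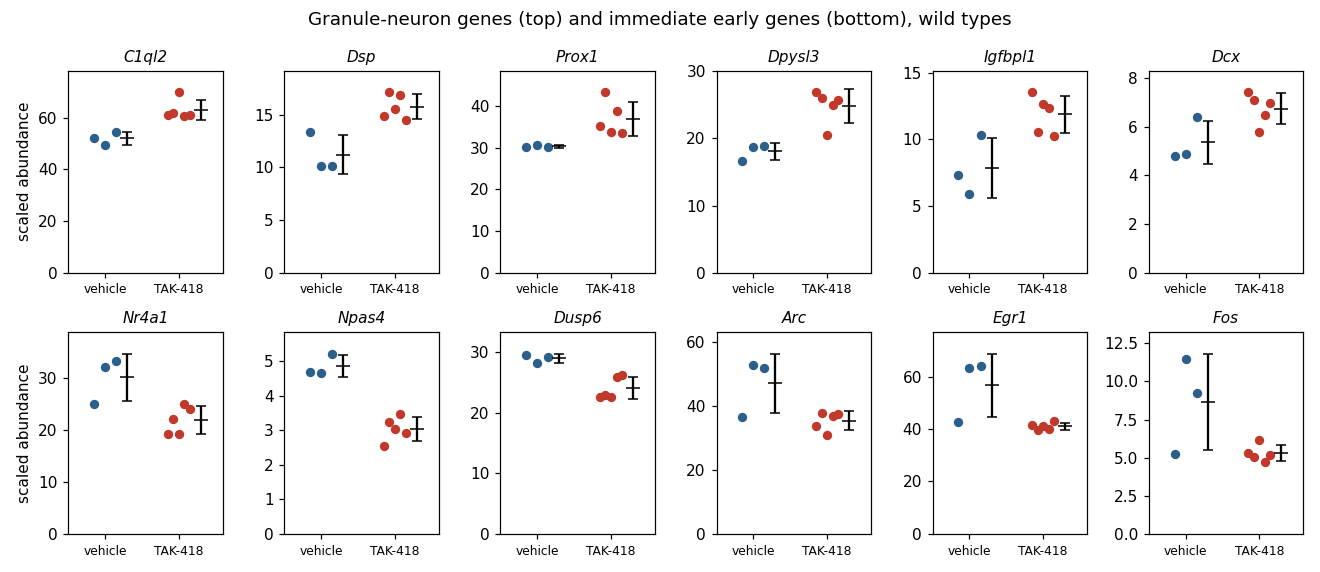
Scaled abundance (y axes, from 0) in the 3 vehicle and 5 TAK-418 wild-type libraries for 6 granule-neuron genes (top) and 6 immediate early genes (bottom), 1 point per library, with the mean and SD as a bar beside them. C1ql2, Dsp, Prox1 and Dpysl3 do not overlap between groups, nor do Npas4 and Dusp6, while in Arc, Egr1 and Fos the first vehicle library lies among the drug libraries.

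Immediate early genes, which neurons switch on within minutes of firing, were mostly lower under TAK-418. As log2 deviation from the wild-type mean, the list average was -0.27, -0.48, -0.24, 0.23 and 0.08 under TAK-418. Under vehicle it was -0.10, 0.35 and 0.43, so TAK-418 replicates 4 and 5 lay above vehicle replicate 1. Of 21 measured, 17 were lower and 4 higher, 6 were lower and none higher at p under 0.05 (against 3.25% lower and 5.14% higher of all genes tested), and the median log2 difference was -0.26, against -0.003 over all genes. Npas4, a transcription factor induced by calcium entry, was at 2.56, 3.25, 3.04, 3.48 and 2.91 under TAK-418 and at 4.68, 4.66 and 5.22 under vehicle (log2 -0.55, SE 0.15, adjusted p = 0.341). Dusp6, a phosphatase that limits ERK signalling, was at 22.6, 22.9, 22.6, 25.9 and 26.2 against 29.6, 28.1 and 29.2 (log2 -0.26, SE 0.07, adjusted p = 0.319). In both, all drug libraries were below all vehicle libraries. The orphan nuclear receptor gene Nr4a1 was at 19.2, 22.2, 19.3, 25 and 24 against 25, 32.2 and 33.4 (log2 -0.44, SE 0.11, adjusted p = 0.309).

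For the other 3 the difference came from vehicle replicates 2 and 3. Arc, which controls AMPA receptor traffic, was at 33.7, 37.7, 31.1, 36.9 and 37.7 under TAK-418 and at 36.5, 53.0 and 52.1 under vehicle (log2 -0.39, SE 0.13, adjusted p = 0.431). Egr1 was at 41.5, 39.6, 41.3, 40.1 and 43.1 against 42.9, 63.5 and 63.9 (log2 -0.43, SE 0.14, adjusted p = 0.439), and Fos at 5.33, 5.06, 6.15, 4.72 and 5.16 against 5.23, 11.5 and 9.22 (log2 -0.57, SE 0.23, adjusted p = 0.52). In each, vehicle replicate 1 was at the level of the drug libraries, which were close to each other. Without vehicle replicate 2, or without replicate 3, 3 members were lower at p under 0.05, without replicate 1 there were 8, and the median stayed between -0.33 and -0.20 with any 1 wild-type library left out. With a pseudocount 10 times larger the median was -0.13. In the authors' deposited tables the 6 members were all lower under TAK-418, with a median log2 ratio of -0.45. They were chosen by p in the same libraries, so this is not independent support.

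Genes induced later by activity were closer to no difference, with 11 of 17 lower and a median log2 difference of -0.04. Rgs2, a regulator of G-protein signalling, was at 22.1 to 24.9 against 26.3 to 28.0 (log2 -0.21, SE 0.06, adjusted p = 0.414), and Crem, a cAMP-responsive factor, at 8.19 to 9.87 against 10.1 to 11, both without overlap. Gadd45g was the third member lower at p under 0.05 (log2 -0.23), against 3.25% of all genes tested. After upper quartile scaling none of these 17 genes was lower at p under 0.05. Of 17 clock genes, 12 were lower (median -0.03), among them Per2 at 9.65 to 14.1 against 13.1 to 14.3 and Arntl at 14.1 to 16.0 against 15.5 to 17.0, and with the highest transcript alone Per2 was at a log2 difference of 0.28.

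Excitatory synapse genes were slightly higher and GABA-A receptor genes slightly lower. Of 26 glutamate receptor and scaffold genes, 20 were higher, 3 of them at p under 0.05 (against 5.14% of all genes tested), with a median log2 difference of 0.09. The median was 0.04 without TAK-418 replicate 4, 0.05 without replicate 2 and 0.05 without vehicle replicate 3. Dlg4, the scaffold PSD-95, was at 306, 320, 313, 314 and 314 under TAK-418 and at 284, 276 and 289 under vehicle (log2 0.15, SE 0.04, adjusted p = 0.281). Grm2, a metabotropic receptor of mossy fibre terminals, was at 25.9, 25.2, 27.0, 27.2 and 25 against 22.5, 22.8 and 22.1 (log2 0.20, SE 0.05, adjusted p = 0.248). The kainate receptor gene Grik5 was at 91.4 to 103 against 82.8 to 85.5. All 3 were above the vehicle range in every drug library, while the abundant AMPA receptor gene Gria1, at 198 to 307 against 214 to 283, overlapped between the groups.

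Of 20 genes of synaptic vesicle release, 13 were higher, 4 at p under 0.05 (against 5.14% of all genes tested), with a median of 0.05. Syn1, the vesicle phosphoprotein synapsin, was at 211, 193, 217, 214 and 224 against 176, 173 and 192 (log2 0.23, SE 0.06, adjusted p = 0.281), and the vesicle SNARE gene Vamp2 at 539 to 597 against 493 to 527 (log2 0.16). Rims1, an active zone scaffold, was also among them, at log2 0.16. Snap25 and Syp, the most abundant members, were at 257 and 401 in TAK-418 replicate 1 and at 691 or more in the other 7 wild-type libraries, and without that library 17 of 20 were higher. Of 13 GABA-A receptor subunits, 12 were lower and 1 higher, with a median of -0.06. At p under 0.05, 1 was lower (against 3.25% of all genes tested). After upper quartile scaling 8 of 13 were lower, with a median of -0.01. Among plasticity kinases 13 of 21 were higher (median 0.05), and Camk2a was at 1131 to 1219 against 1052 to 1098.

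**Figure D3:**
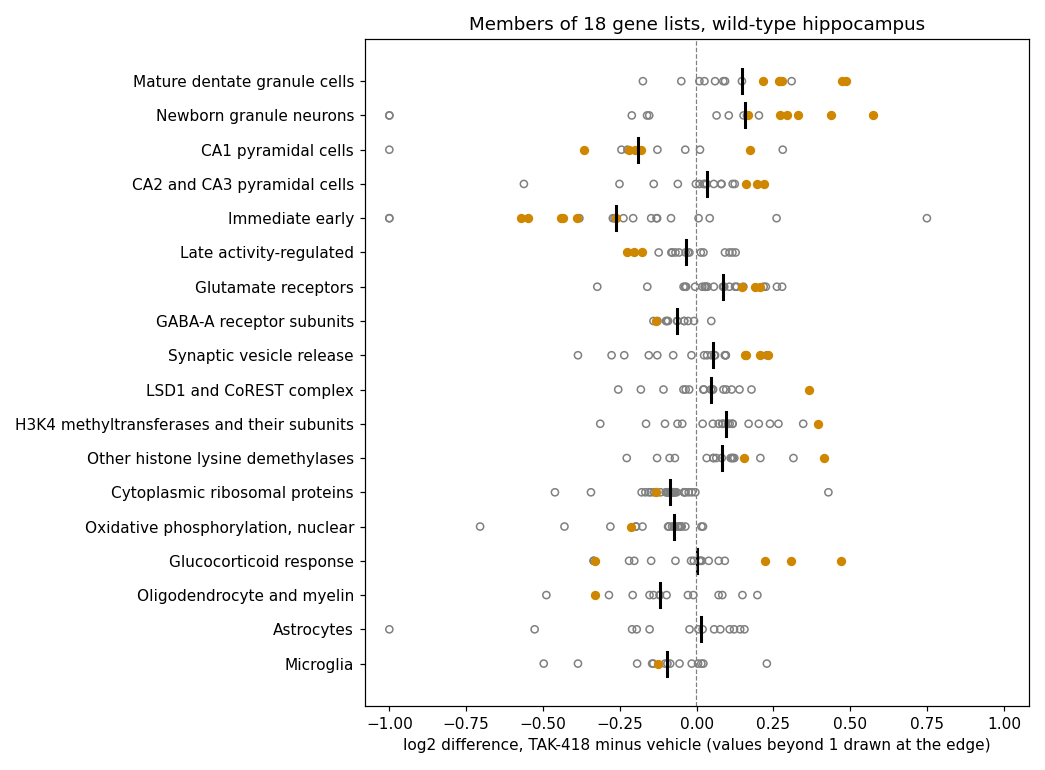
Log2 difference between TAK-418 and vehicle in wild types (x axis) for the 323 measured members of 18 gene lists (y axis), filled where the unadjusted p was under 0.05, with a black bar at each list's median and a dashed line at the median of all genes (-0.003). Granule-neuron lists lie to the right, at 0.15 and 0.16, and the immediate early and CA1 lists to the left, at -0.26 and -0.19; 6 members beyond a log2 difference of 1 are drawn at the edge.

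Among genes that write and erase histone methylation, more members were a little higher than lower. At p under 0.05, 1 LSD1 and CoREST gene, 1 H3K4 gene and 2 other demethylases were higher (against 5.14% of all genes tested). Of 17 LSD1 and CoREST genes measured, 11 were higher and 6 lower (median 0.05), and Rcor2, a CoREST paralogue of progenitors and young neurons, was the member at p under 0.05. It was at 10.5, 10.6, 9.80, 8.97 and 9.01 under TAK-418 and at 7.98, 7.56 and 6.64 under vehicle, with no overlap (log2 0.36, SE 0.09, adjusted p = 0.281). The abundant partners Ctbp1, at 86.9 to 106 against 91.1 to 99.0, and Hdac2, at 60.1 to 64.3 against 61.0 to 70.8, overlapped. Of 21 H3K4 methyltransferase genes and subunits, 16 were higher (median 0.09), with Kmt2b at 11.9 to 17.0 against 9.01 to 12.2 the member at p under 0.05 (log2 0.39, SE 0.16, adjusted p = 0.517), and without TAK-418 replicate 1 none was at that p. The average of this list overlapped between the groups. As log2 deviation from the wild-type mean it was -0.11 to 0.20 under TAK-418 and 0.15, -0.19 and -0.13 under vehicle. Of 17 other demethylases, 13 were higher (median 0.08), among them Kdm4a at 20.4 to 22.1 against 18.4 to 19.8 and Kdm4b at 23.8 to 29.4 against 14.6 to 22.9. Of 26 REST target genes, 17 were higher (median 0.04), with Syn1 and the cadherin gene Celsr3 higher and Npas4 lower at p under 0.05; without vehicle replicate 3, 12 were higher and 14 lower (median -0.0071). Of 8 measured blood-lineage genes under GFI1 and GFI1B, factors that LSD1 inhibitors act on in blood, 4 were higher and 4 lower.

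Ribosomal protein genes were lower in 27 of 28 cases with a median of -0.09, and nuclear genes of oxidative phosphorylation in 19 of 21 with a median of -0.07. Each had 1 member lower at p under 0.05, against 3.25% of all genes tested (for oxidative phosphorylation Atp5g1, 167 to 193 against 199 to 217). After upper quartile scaling these counts were 21 of 28 and 13 of 21, with medians of -0.02 and -0.01, and without vehicle replicate 3, 11 ribosomal genes were lower at p under 0.05. Myelin genes were lower in 11 of 15 (Mog, log2 -0.33), microglial genes in 11 of 15 (P2ry12, log2 -0.13), and interferon genes in 12 of 15 (Irf7, log2 -0.38, and 0.07 with abundance multiplied by length). Without vehicle replicate 2, 6 myelin genes were lower, with the median at 0.008 against -0.12 with it. Without vehicle replicate 1, 4 myelin genes were lower at p under 0.05. Without vehicle replicate 3, 6 microglial genes were lower at p under 0.05 against 1 with it, and 8 interferon genes were lower. The number of all genes lower at p under 0.05 also moved, to 489 to 675 with 1 library left out against 539 with all. Astrocyte genes were higher in 8 of 14, none at p under 0.05, and were low in TAK-418 replicate 1 (-0.63 from the mean of the 8, against 0.05 to 0.20 in the other 7).

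Of 16 endothelial and mural genes, 7 were higher and 9 lower, with a median log2 difference of -0.01 and a lowest of -0.96. At p under 0.05, 3 were higher and none lower (against 5.14% and 3.25% of all genes tested). For 3 the groups did not overlap, all higher (against 3.92%). Cdh5, the cadherin of endothelial junctions, was at 3.94, 3.83, 4.10, 3.93 and 3.75 under TAK-418 and at 3.23, 2.43 and 2.55 under vehicle (log2 0.41, SE 0.12, adjusted p = 0.364), and the VEGF receptor gene Flt1 was at 8.29 to 9.81 against 6.84 to 7.79. Both were higher in every drug library, as was the smooth muscle gene Tagln (log2 0.76, and -0.16 with abundance multiplied by length). Of 18 glucocorticoid response genes, 9 were higher and 9 lower. Zbtb16 was at 24.8, 20.0, 25.9, 20.4 and 19.2 against 16.0, 14.7 and 16.1 (log2 0.47, SE 0.15, adjusted p = 0.441), the hypoxia factor gene Hif3a at 2.92 to 3.26 against 1.95 to 2.59, and Fkbp5 at 29.2 to 32.2 against 22.4 to 31.6, while the kinase gene Sgk1 was lower, at 30.9 to 41.4 against 40.2 to 51.1. Among 16 neuropeptide genes Npy was at 75.8 to 91.4 against 53.9 to 76.8 (log2 0.31), Nmb at 0 in 3 drug libraries and at 3.00 or less in the rest against 3.59 to 4.36, and Trh at 0 to 0.263 against 6.81, 0 and 1.15.

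Genes with a mean of at least 5 and the largest differences without overlap showed how uneven single libraries could be. Nfia, a transcription factor of glia and neurons, was at 14.7, 15.2, 15.8, 17.2 and 14.3 under TAK-418 and at 8.05, 7.29 and 10.9 under vehicle (log2 0.77, SE 0.16, adjusted p = 0.195). Wnk3, a kinase that regulates chloride transport, was at 0.814, 1.05, 3.42, 4.96 and 4.82 against 8.99, 7.61 and 9.29 (log2 -1.47, SE 0.52, adjusted p = 0.466). Both groups of values were separate, with a wide spread for Wnk3. Arxes2 was at 10.4 to 17.4 against 5.23 to 7.56 (log2 1.02), and Foxn3 at 7.88 to 15.2 against 4.52 to 6.07 (log2 0.70). Sema5a had a log2 difference of 0.90, and without vehicle replicate 3, where it was at 4.58, it was 0.22. Uqcrb, at 51.3 to 163 against 46.2 to 49.8, had a log2 difference of 0.94, and -0.19 with abundance multiplied by length. Mrpl55 was at 0.563 and 0.651 in 2 drug libraries and at 20.2 to 22.2 in the other 3, against 22.6 to 23.6, and Coq6 likewise at 2.60 to 2.95 in 3 and at 8.60 and 9.31 in 2, against 10.4 to 10.8. Polr2l was at 13.7 to 64.9 against 69.3 to 82.0, and its log2 difference of -0.997 was -0.64 without TAK-418 replicate 1 and -0.01 with abundance multiplied by length.

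The mutant libraries are separate from the wild-type ones and give the same contrast a further reading. In mutants 412 genes (2.48%) were higher and 317 (1.91%) lower under TAK-418 at p under 0.05. Of the 12 genes higher in wild types, 6 had the same sign there and 3 were higher at p under 0.05: Pnck (log2 0.40), Pgbd5 (log2 0.17) and Tnrc18 (log2 0.23). Sez6l was lower there at p under 0.05 (log2 -0.12), and the median of the 12 was 0.02. Of the 12 lower genes, 8 had the same sign, none at p under 0.05 in limma, with a median of -0.08. Of the genes with the largest differences, Nfia was higher in mutants too at p under 0.05 (log2 0.70), as was Arxes2 (log2 0.98). Arxes2 was uneven there, at 34.1, 11.4 and 12.7 under TAK-418 and at 5.28, 17.1 and 5.96 under vehicle. The other large higher genes were at log2 0.03 (Sema5a), -0.27 (Foxn3) and -0.31 (Uqcrb) in mutants. Of the large lower genes, Mrpl55 was at -1.59, and Wnk3, Coq6, Polr2l and Ifnar2 were at 0.03 to 0.27.

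For the granule and activity lists, the difference between genotypes was not tested. Mature granule genes had a median of 0.04 there, with C1ql2 (log2 0.16) and Tdo2 (log2 0.25) higher at p under 0.05. Newborn granule genes had a median of 0.07, and immediate early genes one of 0.09, with no member lower at p under 0.05. Wfs1 was lower in mutants as in wild types (log2 -0.30). Across all genes tested the 2 drug effects, which share no library, had a Pearson correlation of 0.14 over genes, which are not independent replicates. The interaction test, the drug effect in wild types minus that in mutants, called 1 gene of 16589, which was at 0 in all wild-type libraries, and the smallest adjusted interaction p of the 24 named genes was 0.464.

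**Figure D4:**
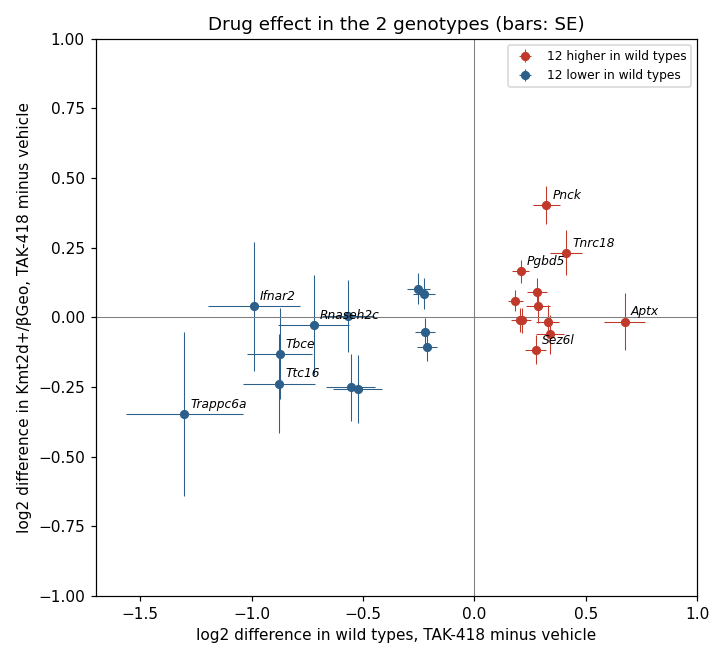
Log2 difference between TAK-418 and vehicle in wild types (x axis) and in KMT2D+/bGeo mice (y axis) for the 12 genes higher and the 12 lower in wild types, with bars of 1 SE. Pnck, Pgbd5 and Tnrc18 lie above 0 on both axes, and Aptx, Tbce and Ifnar2, with log2 differences of 0.67, -0.87 and -0.99 in wild types, lie near 0 on the y axis.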

How the data were processed

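Total RNA from hippocampus was made into libraries with NEBNext Ultra or Ultra II kits, per the labels' protocols. FastQC, TopHat2 2.1.0 and mm10 are named in the submitters' processing notes, and CLASS 2.1.7 assembled each library, per the file headers. The deposited abundance is a score with no stated unit: abundance multiplied by length fell within 0.05 of whole multiples of 1 step for 95.5% to 99.4% of low single-exon transcripts in the wild types, as FPKM values would. The authors deposited FPKM values in 4 comparison tables, used only for their wild-type columns.

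Transcripts were assigned to GENCODE M21 genes by shared introns, or by 50% exon overlap for single exons, and abundances were summed. Of 18751 genes with any value, the 16589 listed in at least 3 of 14 libraries were scaled by median of ratios over 13264 genes and tested with limma 3.58.1 in R 4.3.3 (trend, 4 group means, 10 residual degrees of freedom) on log2(value + 0.882), with Benjamini-Hochberg adjustment. All differences are on that scale, which understates changes of low genes. The fit was tested on simulated data. Figures were drawn in Python 3.11.15.

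Named genes are Kdm1a, Kmt2d, every gene called with 14 or with 8 libraries, the 12 higher and 12 lower with the smallest p and the 5 and 5 with the largest difference among genes in all 8 libraries without overlap, and per list the 4 smallest p and 2 highest levels. Further list members at p under 0.05 and Pcdhb13 were named after their values were seen. The comparison, its genes and the 36 lists were chosen with earlier results of these data known. Alternatives covered scaling, pseudocount, filters, transcript choice, model terms and each library left out. Some genes that the rule names are not reported here.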

Additional observations from a re-analysis of the deposited data

Results flagged for a closer look

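In 149 sets of 5 wild-type TAK-418 values screened (5 library measures, 35 list averages and 109 genes), 11 held a library far from the other 4 by Dixon's criterion, which chance gives in about 1 in 20. TAK-418 replicate 1 accounts for 6 of them. Its recovered depth, with abundances taken as FPKM, was 168 M reads against at most 56.1 M. It had 48430 transcripts (4 digits) against at most 35900, and 16760 genes with a value against at most 15530. Its list averages were -0.149 for synaptic vesicle release, -0.626 for astrocytes and -0.199 for the blood-lineage genes. These averages are log2 deviations from the mean of the 8 wild-type libraries. The other 5 were single genes. In replicate 3 Trappc6a was at 1.84 against at most 1.63 and C1ql2 at 69.9 against at most 62.0. In replicate 4 Foxn3 was at 15.2 against at most 8.76 and Tyms at 350 against at most 62.9. In replicate 5 Lct was at 16.5 against at least 18.9.

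The limma interaction test called 1 gene, Pcdhb13, at an adjusted p of 0.0019. It met the filter of at least 3 libraries only through the 3 mutant TAK-418 libraries, and the other groups had no spread. The small p therefore cannot be read as a measured difference between genotypes in drug response. Pcdhb13, a clustered protocadherin gene, was listed at 0 in all 8 wild-type libraries and in the 3 mutant vehicle libraries and at 2.28, 1.70 and 1.52 in the 3 mutant TAK-418 libraries, a log2 difference of -1.61 between the wild-type and mutant effects on the scale with the pseudocount.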

How the results depend on the processing

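The single adjusted call, Tlnrd1, was made under 8 of 33 alternatives and under none of the 14 that left out a library. With a wild-type vehicle library left out it fell below the filter and was not tested. The number of adjusted calls was 7 with the 8 wild-type libraries alone, 4 with a pseudocount 10 times smaller, 3 with the highest transcript or with abundance times length, 2 with no filter, no trend or library weights, 1 with quantile normalization or GC correction, and 0 with upper quartile scaling, deposited abundances, a pseudocount 10 times larger, genes listed in all 8 wild types, multi-exon transcripts, transcripts of at least 1, robust moderation, or sex, choroid plexus level or single-exon share as a term. Leaving out 1 library gave 0 to 2 calls, 8 different genes in all. Genes lower at p under 0.05 were 276 with upper quartile scaling and 337 with deposited abundances against 539. With 1 library left out they were 489 to 675. Genes lower without overlap were 160 with upper quartile scaling, 239 with deposited abundances and 250 with quantile normalization against 396. With 1 library left out, fewer values being compared, genes without overlap were 646 to 1263 higher and 394 to 1265 lower, the highest both without vehicle replicate 3.

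Of 109 named genes, 15 changed sign under an alternative and none with a library left out. With abundance times length Aptx was at -0.67, Tbce 0.0599, Tmem132e 0.12, Ltbp1 0.17, Mipep 0.0065, Uqcrb -0.19, Top2a 0.35, Etv1 0.13, Tagln -0.16 and Irf7 0.068. With the highest transcript Tnrc18 was at -0.24, Top2a 0.028 and Per2 0.28. With multi-exon transcripts Tyms was at 0.94, and with single-exon share as a term Kmt2d was at -0.043. The cause was not tested. Single-exon share and GC correction were added after seeing the data. No paired analysis was possible because the labels give no replicate numbers, and those used here follow accession order. The planned share of Kdm1a abundance with the microexon was not run, since no transcript held it.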
